A study of Mus musculus with 2 samples.

Results

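Venous endothelial cells line the vessels that carry blood from the lung capillaries back towards the heart. They were picked from single-cell RNA-Seq (scRNA-Seq) of mouse lung by their unique molecular identifier (UMI) counts, each UMI standing for 1 captured RNA molecule. A droplet barcode was taken when it held at least 200 genes, at most 20% mitochondrial UMIs and at least 3000 UMIs. It also had to hold at least 10 UMIs of the endothelial genes Pecam1, Cdh5, Cldn5 and Calcrl together, no UMI of the leukocyte gene Ptprc, at least 3 UMIs of the vein genes Slc6a2, Prss23 and Vegfc together, fewer than 2 of the artery genes Gja5, Bmx and Dkk2 and fewer than 3 of the lymphatic genes Mmrn1, Prox1 and Reln. This gate left 1518 of 25094 deposited barcodes, 983 from Cebpa fl/fl and 535 from Cebpa ΔSftpc mice. They are called vein-gated cells here, because vein markers outside the gate stood higher in those with a UMI of Slc6a2 than in those without, as described below.

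The study deleted the transcription factor gene Cebpa from alveolar type 2 (AT2) cells, the surfactant-making cells of the alveolus, and sequenced lung cells of the deleted mice and their controls. Cebpa fl/fl mice carry the floxed alleles alone, and Cebpa ΔSftpc mice carry in addition a tamoxifen-dependent Cre driven by Sftpc, a gene of AT2 cells and not of endothelium. Both groups were adult mice on a mixed genetic background that had received 5 daily injections of tamoxifen at 75 mg/kg, and the lungs were taken 26 weeks after the first injection, so that what the groups share includes the floxed alleles and the drug. For analyses later than 3 months, the methods add a further weekly course of the drug. The methods give 3 months as the default age. Whether it holds for these libraries is not given in the sources used here. Lungs came from 3 mice per genotype but gave 1 library per genotype, and no barcode could be traced to a mouse. The genotypes could therefore not be tested against each other: every difference is given as 2 levels with 95% counting intervals, which cover counting error only and neither mouse nor library.

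The Cebpa fl/fl library held 69200420 UMIs in 11721 barcodes and the Cebpa ΔSftpc library 64697396 UMIs in 13373 barcodes. Of the barcode sequences, 45 occurred in both libraries and 0 were vein-gated in both. The vein-gated cells held 7721414 UMIs in Cebpa fl/fl mice, with a median of 6758 UMIs and 2763 genes per cell. In Cebpa ΔSftpc mice they held 4520492 UMIs, with a median of 7535 UMIs and 2934 genes per cell. The per-cell totals ran from 3004 to 38906 in the former and from 3009 to 33404 in the latter, so the depth of the cells overlapped almost throughout.

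Pulmonary veins are low-pressure vessels whose endothelium keeps the transcription factor Nr2f2, which holds venous identity by restraining Notch signalling. Vein endothelium of the lung takes up noradrenaline through the transporter Slc6a2, stores von Willebrand factor (Vwf) in Weibel-Palade bodies, and is a site where leukocytes can leave the blood after binding to selectins, Vcam1 and Icam1. Neighbouring capillaries hold general capillary cells, marked by Gpihbp1, Aplnr and Kit, and aerocytes, marked by Ednrb, Apln and Fibin.

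Cebpa itself was read first, because it checks the labels. In vein-gated cells it was sparse in both libraries, with 104 UMIs in 76 cells of Cebpa fl/fl mice (13.5 CPM, the UMIs of a gene scaled to 1000000 UMIs of the cells) and 51 UMIs in 49 cells of Cebpa ΔSftpc mice (11.3 CPM). The log2 ratio of Cebpa ΔSftpc to Cebpa fl/fl was -0.26 (95% counting interval -0.77 to 0.24), which spans 0. In AT2 cells, gated by Lamp3, Slc34a2 and Cxcl15, the level of Cebpa was 158 CPM over 296 cells and 99.5 CPM over 44 cells, a log2 ratio of -0.67 (-1.02 to -0.33). Whether the counted 3′ ends lie inside the deleted stretch is not given in the sources used here.

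The share of vein-gated cells depended on what it was taken over. Of the barcodes with at least 3000 UMIs, 11.97% (exact 95% binomial interval 11.3 to 12.7) were vein-gated in Cebpa fl/fl and 8.61% (7.93 to 9.34) in Cebpa ΔSftpc mice. Of the endothelial cells alone, 16.3% (15.4 to 17.3) of 6014 and 15.8% (14.6 to 17.0) of 3392 were vein-gated. At this minimum the endothelial shares lay inside each other's intervals, whereas over all deep barcodes the Cebpa ΔSftpc share was lower. With a minimum of 5000 UMIs the endothelial shares were 20.6% (19.3 to 21.9) of 3712 and 17.9% (16.4 to 19.5) of 2487, neither inside the other's interval. With each cell thinned to 3000 UMIs and at least 2 UMIs of the vein genes, they were 14.8% (13.9 to 15.7) and 13.7% (12.6 to 14.9), the latter just outside the former's interval. Immune barcodes with at least 3000 UMIs numbered 52 in the Cebpa fl/fl and 543 in the Cebpa ΔSftpc library, so the make-up of what was not endothelium also differed.

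The 3 genes that chose the cells are a description and not a finding. Slc6a2 (chr8:92960079-93001667, plus strand, mm10 with GENCODE M21) stood at 563 CPM in Cebpa fl/fl and 376 CPM in Cebpa ΔSftpc mice. Prss23, a secreted serine protease (chr7:89507783-89527187, minus strand), stood at 1006 and 687 CPM, and Vegfc, the growth factor of lymphatic vessels (chr8:54077606-54187096, plus strand), at 236 and 243 CPM. Prss23 was found in 94.7% and 87.9% of the cells, Vegfc in 68.1% and 69.7%, and Slc6a2 in 49.5% (46.4 to 52.7) and 48.2% (43.9 to 52.6). All 3 were found together in 364 and 180 cells. In 197 and 93 cells Prss23 alone met the gate. Vegfc alone did so in 43 and 55 cells, so Prss23 let in the larger number by itself.

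At the threshold, 212 and 130 cells held exactly 3 UMIs of these genes, and 403 and 225 endothelial cells held 2 and stayed outside. Just outside, Vwf stood at 479 CPM in Cebpa fl/fl and 551 CPM in Cebpa ΔSftpc mice, and just inside at 717 and 760 CPM. Where the sum reached 20 or more, it stood at 4484 and 4208 CPM. Kit, the stem cell factor receptor carried by general capillary cells, stood at 626 and 567 CPM just outside, 623 and 664 CPM just inside and 86.8 and 93.4 CPM at 20 or more. Of the vein markers described below, Bst1 stood at 9.36 and 21.4 CPM just outside and at 23.6 and 19.985 CPM just inside. Amigo2 stood at 11.98 and 26.7 CPM just outside and at 24.3 and 20.98 CPM just inside. Kit was therefore close on both sides of the threshold, whereas Vwf was higher just inside it in both libraries. Bst1 and Amigo2 were higher just inside it in Cebpa fl/fl mice only. Vwf, Bst1 and Amigo2 stood highest in cells with 20 or more UMIs of the gate genes. The plot of levels by gate-gene UMIs shows 6 genes.

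**Figure D1:**
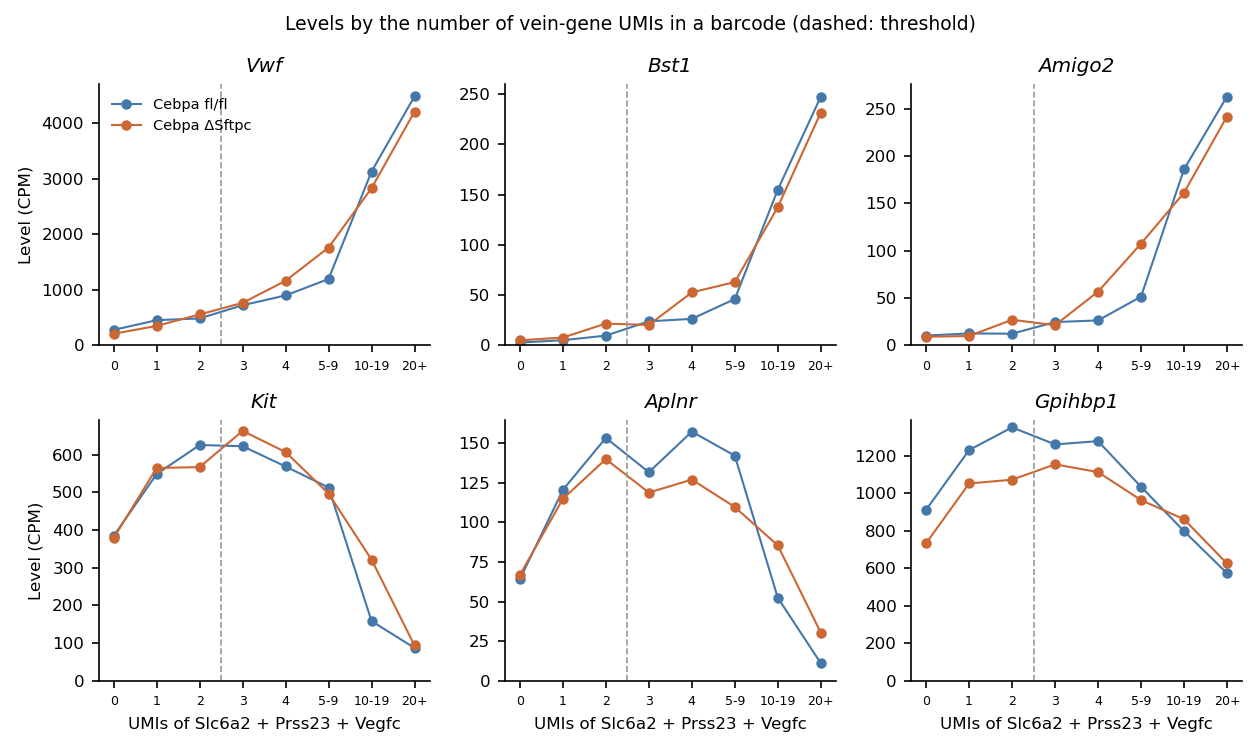
Level (CPM, from summed UMIs) of Vwf, Bst1, Amigo2, Kit, Aplnr and Gpihbp1 in endothelial cells grouped by their UMIs of Slc6a2, Prss23 and Vegfc together, 1 line per genotype; the dashed line marks the threshold of 3. In both libraries Vwf runs from 479 and 551 CPM at 2 UMIs to 4484 and 4208 CPM at 20 or more, while Kit runs the other way, from 626 and 567 CPM to 86.8 and 93.4 CPM.

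Vwf (chr6:125546774-125686679, plus strand), the fourth marker given for these cells and not used by the gate, was checked on its own. It stood at 2297 CPM (counting interval 2263 to 2331) in vein-gated cells of Cebpa fl/fl and at 2172 CPM (2129 to 2215) in those of Cebpa ΔSftpc mice, and was found in 90.2% and 89.5% of them. General capillary cells stood at 461 and 387 CPM. Artery-gated cells stood at 3030 and 1928 CPM, so Vwf set the vein-gated cells apart from the capillary but not from the artery.

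The cells were next split by Slc6a2, a split made after the data were seen. Slc6a2 is a gate gene, so cells without it entered through Prss23 and Vegfc. Prss23 stood 3.21-fold and 3.06-fold higher in the cells with Slc6a2. Vwf rose by steps with the UMIs of the gate genes, from 1190 and 1757 CPM at 5 to 9 to 3128 and 2829 CPM at 10 to 19. The split therefore cuts a range and does not show 2 kinds of cell. Where at least 1 UMI of Slc6a2 was found, Vwf stood at 3801 CPM in Cebpa fl/fl and 3695 CPM in Cebpa ΔSftpc mice. Where none was found, it stood at 769 and 829 CPM, which left the level with Slc6a2 4.94-fold and 4.45-fold above that without. Both sets had like depth: the median was 6764 against 6749 UMIs in Cebpa fl/fl and 7512 against 7587 in Cebpa ΔSftpc mice. The contrast was the same in kind for Bst1, an ectoenzyme that breaks down NAD (193 and 177 CPM with Slc6a2, 32.6 and 33.3 CPM without), and for Nr2f2 (168 and 179 CPM with, 61.9 and 62.0 CPM without).

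General capillary markers ran the other way. Kit stood at 142 and 198 CPM in the cells with Slc6a2 and at 591 and 636 CPM in those without, near the 694 and 747 CPM of general capillary cells. Aplnr, the apelin receptor, stood at 33.4 and 53.8 CPM with Slc6a2 and at 149 and 128 CPM without, beside 126 and 136 CPM in general capillary cells. Gpihbp1, which holds lipoprotein lipase on capillary walls, stood at 754 and 787 CPM with Slc6a2 and at 1129 and 1063 CPM without. At least 3 UMIs of these 3 capillary genes were held by 80.2% and 83.6% of all vein-gated cells. General capillary cells were themselves gated on these 3 genes, so the levels there follow in part from that gate. Summed over the 487 and 258 cells in which Slc6a2 was found, markers that the gate did not use, Vwf, Bst1 and Nr2f2, stood at their higher levels, which says nothing of each single cell, whereas in the 496 and 277 cells in which it was not found Kit, Gpihbp1, Vwf, Bst1 and Nr2f2 lay between the levels of those cells and of general capillary cells, and Aplnr stood above the general capillary level in Cebpa fl/fl mice. The plot of marker levels by gate sets both beside the other vessels.

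**Figure D2:**
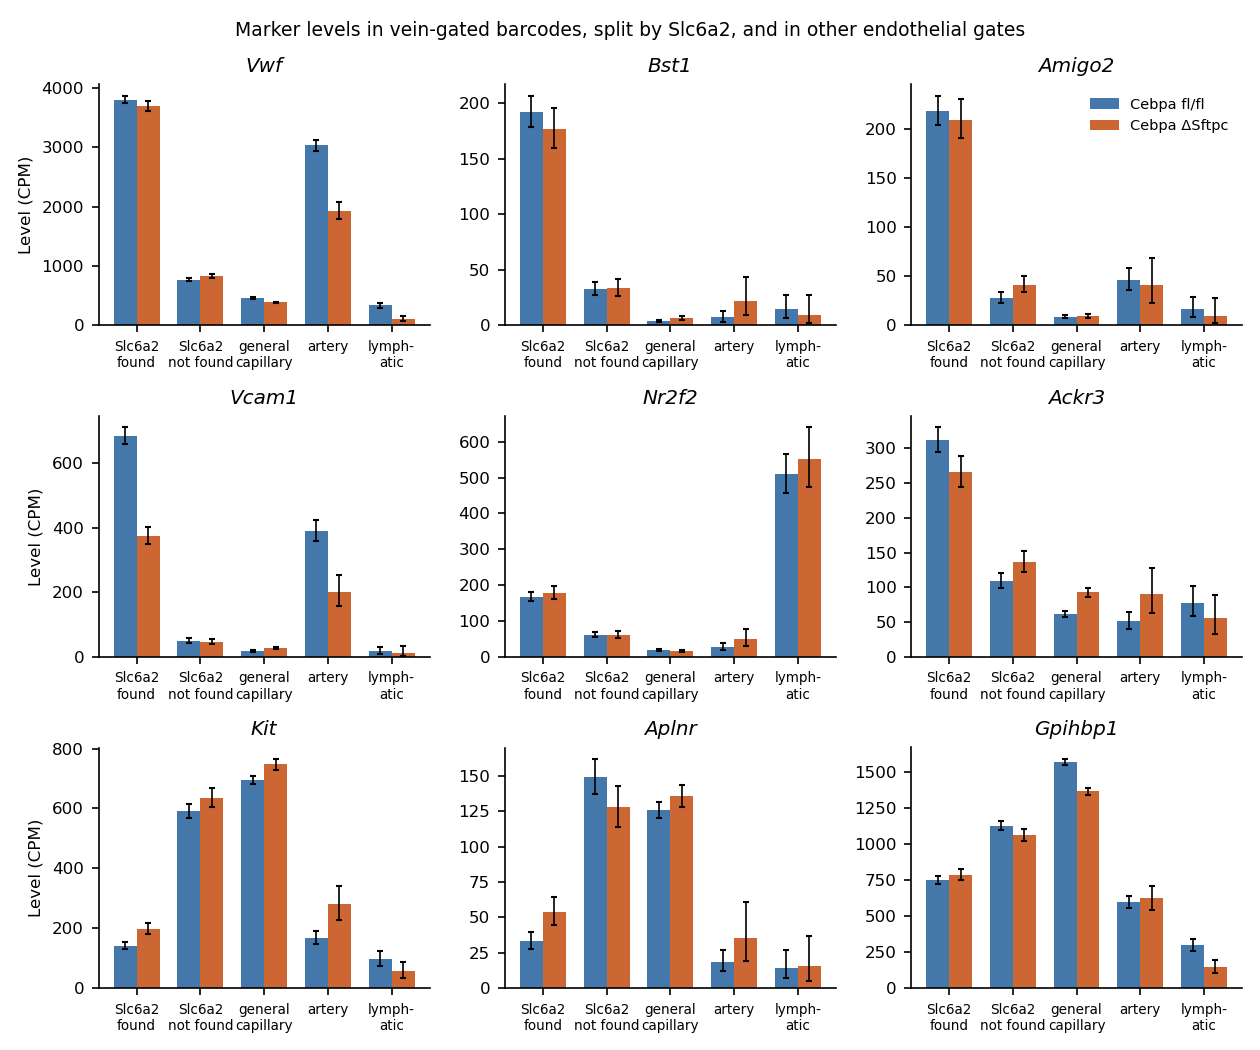
Level (CPM) of 9 genes in vein-gated cells with and without a UMI of Slc6a2 and in general capillary-, artery- and lymphatic-gated cells; bars are levels from summed UMIs, 1 colour per genotype, and error bars are exact 95% Poisson intervals of counting error. Bst1 and Amigo2 stand highest in the cells with Slc6a2 in both libraries, while Kit stands at 142 and 198 CPM there and at 591 and 636 CPM in the cells without.

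Since cells of 1 library share free RNA and a small number of UMIs can miss a gene, shares of cells with a UMI were compared after thinning each cell to 3000 UMIs. Slc6a2 was then found in 41.7% and 37.8% of vein-gated cells. In general capillary cells it was found in 0.873% and 1.12%, and in immune cells of Cebpa ΔSftpc mice in 0.552%; the immune cells had median depths of 6823 and 6398 UMIs. Amigo2 was found in 24.6% and 24.3% of thinned vein-gated cells against 2.39% and 2.79% of general capillary cells. Slc6a2 chose the cells and Amigo2 was named for its level in them, so these shares are a description. Across single thinned cells, Spearman's rho between Slc6a2 and Vwf was 0.700 in 983 and 0.636 in 535 cells, and between Slc6a2 and Kit -0.525 and -0.440. These are descriptions only, since the cells share a library and Slc6a2 is a gate gene.

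Set beside artery-, general capillary- and lymphatic-gated cells, 15 of 10705 measured genes (0.14%) stood at least 2-fold above the highest of the other 3 gates in both libraries, with 10 CPM added. The gate genes Slc6a2 and Vegfc were among them, and the groups compared were made by gates, so these genes describe the cells and test nothing. Bst1 (chr5:43818885-43843986, plus strand) led the others, with 113 CPM (105.8 to 121.0) in Cebpa fl/fl and 101 CPM (91.6 to 110.3) in Cebpa ΔSftpc mice, beside 3.64 and 6.66 CPM in general capillary cells. After thinning, Bst1 was found in 22.8% and 22.2% of vein-gated cells, in 1.14% and 1.89% of general capillary cells and in 15.1% of immune cells of Cebpa ΔSftpc mice, so leukocytes carried it as well. Rgs5, a regulator of G protein signalling best known from pericytes, stood at 46.4 and 38.1 CPM, and Ptgs1, the constitutive cyclooxygenase, at 201 and 161 CPM. Ackr3, a scavenging receptor for Cxcl12, stood at 211 and 197 CPM. Rflnb (122 and 137 CPM), the small heat shock protein gene Cryab (72.8 and 70.1 CPM), the potassium channel gene Kcnh1 (36.1 and 49.8 CPM), Lpcat2, which makes platelet-activating factor (35.5 and 27.2 CPM), and the homeobox gene Lhx6 (29.7 and 38.3 CPM) followed. Gm30382 and 2200002D01Rik, with no name of known function, made up the group with Amigo2 and Ackr1. In none of the 9 genes given with values did the libraries differ by 2-fold. They were named for standing above the other vessels in both libraries, which limits how far the libraries could differ in them. Of all 10705 measured genes, 0.953% were at least 2-fold higher and 2.37% at least 2-fold lower in Cebpa ΔSftpc mice.

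Amigo2, an adhesion molecule of the immunoglobulin superfamily (chr15:97244125-97247287, minus strand), and Ackr1, the Duffy chemokine receptor found on venules (chr1:173331886-173333750, minus strand), belong to the same group. Amigo2 stood at 124 CPM (116 to 132) and 120 CPM (110.2 to 131), with 379 of 983 and 221 of 535 cells holding it. Ackr1 stood at 25.5 and 22.8 CPM but was found in 36 and 31 cells, and 86 of its 197 UMIs in the Cebpa fl/fl library lay in 1 cell. The level of Ackr1 therefore rested on few cells, while that of Amigo2 was spread over many. The sequences before their RefSeq starts are shown because they are the pair of vein genes of this group with a known adhesion or chemokine-binding role whose windows were at hand. Both are from RefSeq (GRCm38.p6, minus strand), run 5′ to 3′ and end at the base before the RefSeq start; Amigo2 is chr15:97247288-97247537 and Ackr1 is chr1:173333504-173333753, which lies almost wholly inside the longer GENCODE span of Ackr1 given above. Capitals mark AGGTCA, the half-site bound by nuclear receptors, searched on both strands.
Amigo2: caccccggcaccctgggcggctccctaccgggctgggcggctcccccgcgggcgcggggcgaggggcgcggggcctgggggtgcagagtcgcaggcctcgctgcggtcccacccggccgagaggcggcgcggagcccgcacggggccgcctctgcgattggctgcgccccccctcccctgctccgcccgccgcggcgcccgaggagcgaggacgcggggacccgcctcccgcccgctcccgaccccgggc
Ackr1: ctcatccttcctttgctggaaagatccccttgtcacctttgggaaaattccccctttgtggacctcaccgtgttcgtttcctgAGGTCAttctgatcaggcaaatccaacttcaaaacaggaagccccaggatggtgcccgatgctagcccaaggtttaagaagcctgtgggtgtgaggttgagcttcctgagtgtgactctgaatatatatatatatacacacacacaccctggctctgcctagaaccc
AGGTCA was found 1 time in the Ackr1 window, starting 167 bases before the start, and not in the Amigo2 window, which is rich in C and G. Of 32851 mouse windows of the same length, 14.02% hold these letters, so a match is a description of sequence and not a site.

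The direction of the vein list depended on the cells. Of its 17 genes, all measured, 4 stood higher and 13 lower in Cebpa ΔSftpc mice, with a median log2 ratio of -0.17 beside -0.02 over all measured genes, and its summed level was 6048 and 4707 CPM, of which Mgp gave 1009 and 209 CPM. Mgp alone was 2-fold apart. In the cells with Slc6a2, 4 genes stood higher and 13 lower (median -0.16), whereas in those without it 10 of 15 measured stood higher and 5 lower (median 0.11). Cells with 20 or more UMIs of the gate genes numbered 240 of 983 in Cebpa fl/fl and 87 of 535 in Cebpa ΔSftpc mice, and in cells with 5 to 9 such UMIs Vwf stood at 1190 and 1757 CPM. Background shares were 0.953% of 10705 measured genes at least 2-fold higher and 2.37% at least 2-fold lower in Cebpa ΔSftpc mice (102 and 254 genes), a measured gene being one with at least 50 UMIs over both libraries. In the cells with Slc6a2 alone, 0.635% and 2.12% of 9288 genes were apart in these directions.

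Single genes of the list varied around this median. Vwf had a log2 ratio of -0.08 (-0.12 to -0.05). Lyve1, a hyaluronan receptor, stood at 1083 and 758 CPM, a log2 ratio of -0.51. Nrp2, a co-receptor for Vegfc, stood at 71.9 and 108 CPM, a log2 ratio of 0.59. Bst1, Amigo2, Ackr1 and Ackr3 had log2 ratios of -0.17, -0.05, -0.16 and -0.10, of which only that of Bst1 had an interval short of 0, at -0.34 to -0.00. These 4 genes were named for standing above the other vessels in both libraries, which limits how far the libraries could differ in them. In the cells without Slc6a2 the ratios were 0.03, 0.56, 2.19 and 0.32, and without the cell holding most of its UMIs that of Ackr1 was 0.47.

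Mgp, a matrix protein that binds bone morphogenetic proteins (chr6:136872435-136875823, minus strand), stood at 1009 CPM in Cebpa fl/fl and 209 CPM in Cebpa ΔSftpc mice, a log2 ratio of -2.27 (-2.37 to -2.17). It was found in 584 and 243 cells, and 895 of its 7792 UMIs in the Cebpa fl/fl library lay in 1 cell. Stromal genes moved with it: Dcn, which fibroblasts make in bulk, stood at 419 and 97.6 CPM in the same cells. Without the 58 and 37 cells that held at least 3 UMIs of stromal genes, the log2 ratio of Mgp was -0.85, and in general capillary cells it was -0.81. The part of stromal RNA in the difference was otherwise not tested.

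Among genes of leukocyte adhesion, 4 of 12 measured stood higher and 8 lower in Cebpa ΔSftpc mice, none of them 2-fold apart, with a median log2 ratio of -0.16. In the cells without Slc6a2, 5 of 10 measured stood higher and 5 lower (median 0.12). Vcam1, the ligand of integrin VLA-4 (chr3:116109949-116129688, minus strand), stood at 369 CPM (356 to 383) and 200 CPM (187 to 214), a log2 ratio of -0.88 (-0.99 to -0.78). In the cells with Slc6a2 it stood at 684 and 374 CPM and in those without at 50.1 and 46.6 CPM. In cells with 3 to 4 UMIs of the gate genes it stood at 50.7 and 70.8 CPM, and with 5 to 9 at 378 and 63.6 CPM. With 10 to 19 it stood at 281 and 384 CPM, and with 20 or more at 769 and 413 CPM. The direction for Vcam1 thus differed between these groups of cells. One Cebpa fl/fl cell held 583 of the 2852 UMIs of Vcam1, and without the cell holding most the log2 ratio was -0.71. Icam1 stood at 238 and 217 CPM and Selp, which is released from Weibel-Palade bodies to catch rolling leukocytes, at 49.7 and 40.5 CPM. The log2 ratio of Selp was -0.30 over all vein-gated cells, -0.65 in those with Slc6a2, 1.40 in those without and 0.14 by the mean CPM per cell. Sele, E-selectin, had 103 UMIs over both libraries and log2 ratios of -0.58 in all vein-gated cells, -1.04 in those with Slc6a2 and 2.41 in those without. In the cells without Slc6a2 Sele held fewer than 50 UMIs over both libraries, so the ratio of 2.41 lies under the minimum for a measured gene. Vcam1 was the adhesion gene furthest apart over all vein-gated cells, and Sele in those with Slc6a2.

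Weibel-Palade body genes stood 3 higher and 9 lower among 12 measured (median -0.22). In the cells with Slc6a2 they stood 0 higher and 12 lower (median -0.33), and in those without 6 higher and 6 lower (median 0.01). Genes of haemostasis stood 9 higher and 8 lower among 17 (median 0.06). Of the haemostasis genes, F3, tissue factor, stood at 11.7 and 4.20 CPM, a log2 ratio of -1.47. Without the cells with stromal genes its ratio was -0.06, so the difference was not kept in every choice of cells. Thbd, thrombomodulin, stood at 1142 and 1194 CPM. Of the genes for handling monoamines, Maoa, which oxidises noradrenaline, stood at 106 and 121 CPM (log2 ratio 0.19).

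Over all 29 lists of endothelial and general functions, 281 of 316 genes were measured, of which 6 (2.14%) were at least 2-fold higher and 9 (3.20%) at least 2-fold lower in Cebpa ΔSftpc mice. The higher genes included Unc5b, Pdpn, Tnfrsf1b, Cxcl10 and S100a4. The lower genes were Mgp, F3, Il33, Col3a1, Fn1, Col1a2, Col1a1, Top2a and Tfrc. In the cells with Slc6a2 the log2 ratios of Unc5b, Pdpn, Tnfrsf1b and Cxcl10 were 0.56, 0.42, 0.80 and -0.50, and without the cell holding most of it that of Pdpn was 0.45. Without the cells with stromal genes, those of Mgp, F3, Col3a1, Fn1, Col1a2 and Col1a1 were -0.85, -0.06, -0.82, -0.03, 0.41 and 0.16. Without the cells with 2% or more of their UMIs from another cell type, that of Tfrc was -0.92. Il33 was at -0.71 by the mean CPM per cell and at -0.62 without the cells with 10 or more capillary UMIs. S100a4 and Top2a stayed at least 2-fold apart in the alternatives run, Top2a with 170 UMIs in 12 cells of Cebpa fl/fl mice and S100a4 at 3.50 and 13.5 CPM beside 820 and 755 CPM in immune cells. The medians of the lists lay between -0.33 and 0.43. The 18 general endothelial genes had a median of 0.03 with 0 genes 2-fold apart, the 13 artery genes 0.04, the 10 general capillary genes -0.18 and the 9 aerocyte genes -0.12. Interferon-responsive genes stood higher in 15 of 18 cases by small amounts (median 0.15), Notch genes in 7 of 11 (median 0.27), heat shock genes in 6 of 7 (median 0.24) and oxidative phosphorylation genes in 2 of 12 (median -0.11). The 6 genes of systemic bronchial vessels all stood lower (median -0.33), none of them 2-fold. The plot of list members shows the measured genes of these lists, apart from the lymphatic list, which holds Pdpn, and the transport list, which holds Tfrc.

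**Figure D3:**
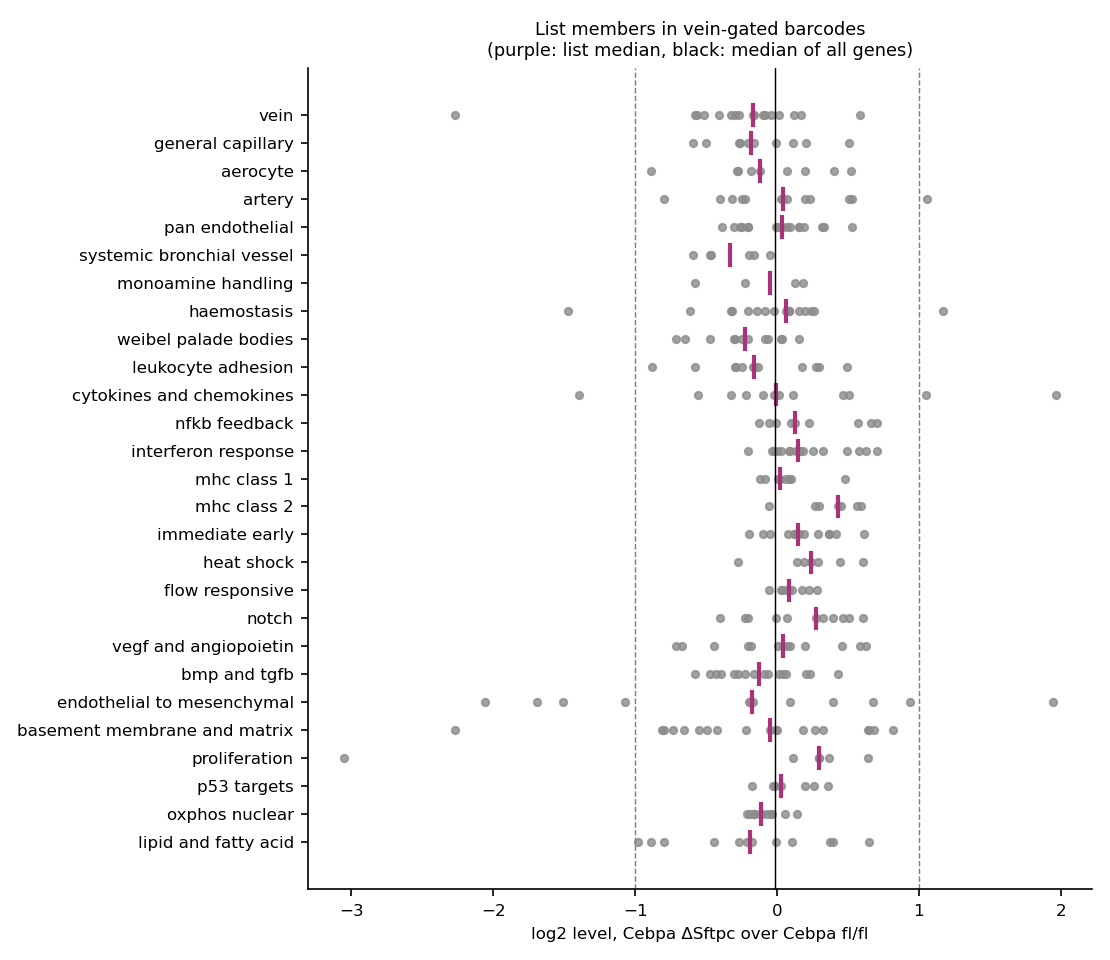
Log2 ratio of the level in Cebpa ΔSftpc over Cebpa fl/fl vein-gated cells (x axis) for the measured members of each list (y axis); each grey point is 1 gene, purple bars are list medians, the black line is the median of all measured genes and dashed lines mark 2-fold. Most points lie between the dashed lines, and the median of the vein list is -0.17.

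Antigen presentation by MHC class II was the list with the highest median, 0.43 over 7 genes, of which 6 stood higher. Cd74, the invariant chain, stood at 842 and 1267 CPM, a log2 ratio of 0.59, H2-Ab1 at 355 and 480 CPM (0.43), H2-Aa at 360 and 434 CPM (0.27) and Ciita, the activator of the whole group, at 26.3 and 38.9 CPM (0.57). The list's median was 0.16 in the cells with Slc6a2 and 0.67 in general capillary cells. The rise in class II levels was therefore smaller in the cells with Slc6a2, a contrast that was not tested. The immune cells gated by Ptprc, which carry these genes too, were 52 and 543 in number, and their part in the result was not tested.

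The list of basement membrane and general matrix genes, which does not hold Lama1 (described below), stood 8 higher and 11 lower among 19 measured (median -0.05), with 1 gene, Mgp, 2-fold apart. In the cells with Slc6a2 it stood 7 higher and 12 lower (median -0.27), with 4 genes at least 2-fold lower. It stood 9 higher and 10 lower in the cells without Slc6a2 (median -0.01), and 13 higher and 6 lower in general capillary cells (median 0.31). The type IV collagen chains, which build the sheet under the endothelium, stood higher in Cebpa ΔSftpc mice: Col4a1 at 561 and 900 CPM, a log2 ratio of 0.68 (0.62 to 0.74), and Col4a2 at 265 and 468 CPM, a log2 ratio of 0.82. For Col4a1 the ratio was 0.49 in the cells with Slc6a2, 0.74 in those without and 1.13 in general capillary cells. Sparc, which binds these collagens, stood at 446 and 694 CPM, a log2 ratio of 0.64. These 3 genes stood higher together, short of 2-fold. In the cells with Slc6a2 the ratios of Col4a2 and Sparc were 0.66 and 0.44, and in those without 0.84 and 0.69.

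The genes furthest apart were often genes of other cell types. Sftpc, the surfactant protein gene of AT2 cells, was the lowest in Cebpa ΔSftpc mice, with 31683 UMIs (4103 CPM) in 968 cells against 641 UMIs (142 CPM) in 265 cells, a log2 ratio of -4.85 (-4.97 to -4.74). After thinning, it was found in 88.1% and 25.2% of vein-gated cells and in 86.5% and 25.2% of immune cells, which do not make it. All 9 AT2 markers stood at least 2-fold lower, their sum at 5739 and 426 CPM with Sftpc and Lyz2 the most abundant in turn. Without the cells with 2% or more of their UMIs from another cell type, which left 970 and 532 cells, the log2 ratio of Sftpc was -2.32 and that of Lyz2 0.69. A subtraction of free RNA was scaled on Sftpc, Sftpa1, Sftpb and Sftpd themselves, so it tells nothing of these genes. That sum in general capillary cells was 6664 and 1340 CPM. The shares of cells with Sftpc in vein-gated and immune cells were close within each library, the Cebpa fl/fl immune cells being 52 in number. The ratio depended in good part on the cells with 2% or more of their UMIs from another cell type. The parts of free RNA, attached cells and expression in the difference were not tested.

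Of the 10 highest ratios, 8 were those of leukocyte genes. The other two, Upk3b and Sfrp2, had 1 UMI each in the Cebpa fl/fl library, and 89 of 90 and 47 of 51 UMIs in 1 cell of the Cebpa ΔSftpc library. Chil3, a chitinase-like protein of macrophages, had 4 UMIs in the Cebpa fl/fl and 392 UMIs in the Cebpa ΔSftpc library, the latter in 226 of 535 cells, and stood at 1449 CPM in immune cells of Cebpa ΔSftpc mice. After thinning, it was found in 19.8% of vein-gated, 21.9% of general capillary and 32.6% of immune cells of these mice. S100a8, the calgranulin of neutrophils, had 10 and 211 UMIs, a log2 ratio of 5.17 (4.26 to 6.25), and stood at 13313 CPM in those immune cells. With the average profile of each library subtracted as free RNA, S100a8, S100a9, Il1b, Ctss and Tyrobp had no counts left in vein-gated cells of either library, so no ratio is given, while Chil3 kept 176 counts in the Cebpa ΔSftpc library, Ccl6 37.5 and Mpeg1 21.8, each against under 1 count in the other. The 3 measured neutrophil markers of 5 all stood higher, with summed levels of 4.01 and 127 CPM and S100a9 the most abundant. Erythroid genes summed to 94.4 and 1151 CPM, with Hbb-bs the most abundant, and 2515 of the 2810 UMIs of Hbb-bs in the Cebpa ΔSftpc library lay in 1 cell. Macrophage markers summed to 466 and 284 CPM, led by Lyz2, which AT2 cells also carry and which alone was lower, while Chil3 and Cd68 (9 and 41 UMIs, log2 ratio 2.96) stood higher. Lymphocyte markers summed to 2.72 and 26.5 CPM, led by Ccl5, with 3 of 9 at 0 in the Cebpa fl/fl library. Mesenchymal markers stood at least 2-fold lower in 7 of 11 cases, with sums of 1038 and 429 CPM, led by Dcn and Acta2. Airway markers summed to 2263 and 361 CPM, led by Scgb1a1, of whose 17145 UMIs in the Cebpa fl/fl library 15473 lay in 1 cell. In the cells without Slc6a2 the airway sum was 237 and 340 CPM. Of the airway markers, Scgb3a1 stood at least 2-fold higher over all vein-gated cells (log2 ratio 1.18). AT1 markers summed to 269 and 159 CPM, led by Hopx, platelet markers to 64.2 and 50.7 CPM, led by Pf4, and mesothelial markers to 0.907 and 39.2 CPM, where 89 of the 90 UMIs of Upk3b lay in 1 Cebpa ΔSftpc cell. In immune cells the sums ran the other way for 7 of these lists: AT2 (5812 and 9378 CPM), airway (155 and 303 CPM), mesenchymal (78.6 and 276 CPM), macrophage (6174 and 10028 CPM), lymphocyte (7775 and 3445 CPM), erythroid (8522 and 82.0 CPM) and platelet markers (26.2 and 29.9 CPM). The AT2 list holds Lyz2, which the macrophage list also holds. The share of thinned immune cells with Sftpc, given above, was lower in the Cebpa ΔSftpc library. How far attached cells or expression took part in these differences was not tested. The plot of ratio against level shows where these genes stand.

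**Figure D4:**
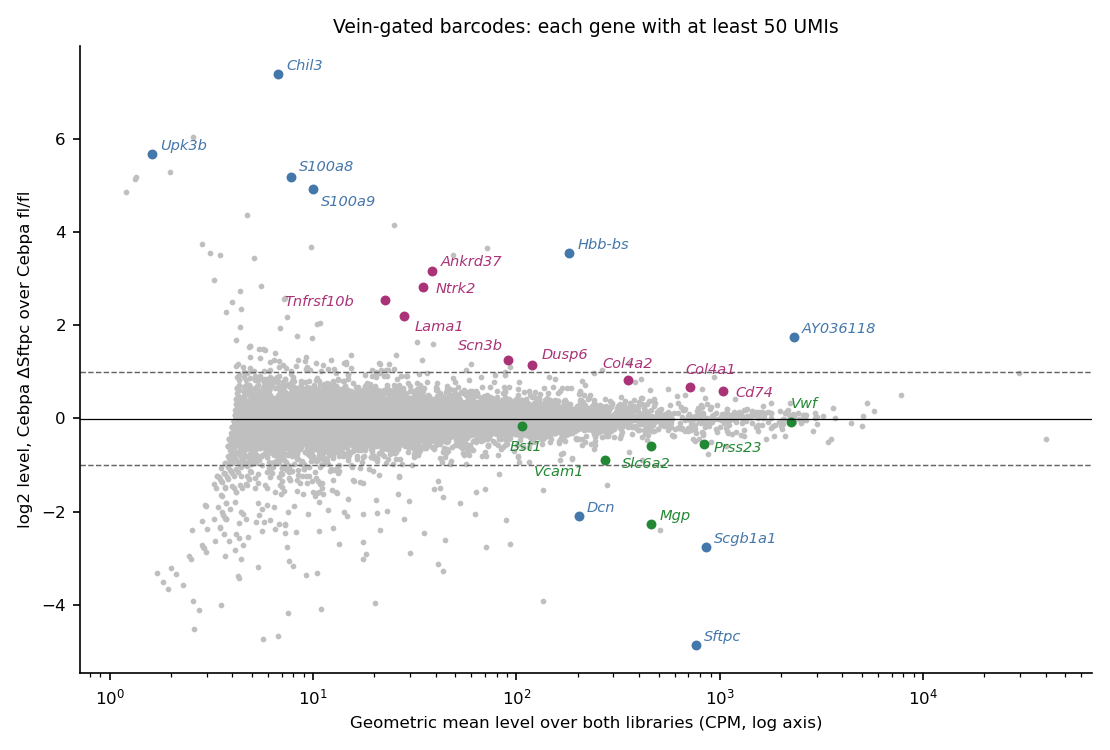
Log2 ratio of the level in Cebpa ΔSftpc over Cebpa fl/fl vein-gated cells (y axis) against the geometric mean level (x axis, CPM, log axis), each point 1 gene with at least 50 UMIs; dashed lines mark 2-fold and the black line the median. The cloud lies around the median of -0.02, with Sftpc at -4.85 far below it and Ankrd37, Ntrk2, Tnfrsf10b and Lama1 between 2.19 and 3.17 above it.

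To see which differences lay in the vein-gated cells at large, the genes at least 2-fold apart were sorted by how they were spread, with limits set after their values were seen. Of the 102 higher genes, 10 (9.80%) had more than 50% of their Cebpa ΔSftpc UMIs in 1 cell, and 69 were found in at least 5% of the cells with less than 10% of the UMIs in any 1 cell. Of these spread genes, 39 were at least 2-fold higher both in the cells with and in those without Slc6a2, and 17 of the 39 also stood at a higher level in vein-gated than in immune cells of Cebpa ΔSftpc mice. Of the 254 lower genes, 64 were spread, 28 were lower in both sets of cells and 12 of these stood above their level in stromal cells of Cebpa fl/fl mice. The selection fixes the direction of these genes, so their values are given as a description.

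Ankrd37, an ankyrin-repeat gene that responds to hypoxia-inducible factors (chr8:45996902-46005707, minus strand), was the furthest apart of the 17. It had 99 UMIs in 80 cells of Cebpa fl/fl mice (12.8 CPM, 10.4 to 15.6) and 522 UMIs in 193 cells of Cebpa ΔSftpc mice (115 CPM, 105.8 to 126), a log2 ratio of 3.17 (2.86 to 3.50). The ratio was 2.87 in the cells with Slc6a2, 3.46 in those without and 3.01 in general capillary cells. After thinning, it was found in 3.56% and 20.9% of vein-gated cells and in 1.92% and 3.50% of immune cells. No single cell held more than 13 of its UMIs.

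Ntrk2, the receptor TrkB for brain-derived neurotrophic factor (chr13:58806569-59133970, plus strand), had 101 UMIs in 63 cells (13.1 CPM) and 418 UMIs in 154 cells (92.5 CPM), a log2 ratio of 2.82 (2.50 to 3.15). The ratio was 2.54 with Slc6a2, 2.91 without and 2.04 in general capillary cells, where Ntrk2 stood at 42.8 and 176 CPM. It was found in 2.64% and 18.1% of thinned vein-gated cells and in 0.737% of immune cells of Cebpa ΔSftpc mice. Within the vein-gated cells its level was higher in those without Slc6a2, at 16.4 and 124 CPM beside 9.77 and 56.7 CPM in those with it.

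Tnfrsf10b, a death receptor for TRAIL (chr14:69767472-69784411, plus strand), had 72 UMIs in 65 cells (9.32 CPM) and 245 UMIs in 168 cells (54.2 CPM), a log2 ratio of 2.54 (2.15 to 2.94). Lama1, the laminin alpha-1 chain of basement membranes (chr17:67697259-67822647, plus strand), had 101 UMIs in 80 cells (13.1 CPM) and 270 UMIs in 133 cells (59.7 CPM), a log2 ratio of 2.19 (1.86 to 2.54). Lama1 stood higher in the cells with Slc6a2, at 17.7 and 70.4 CPM, than in those without, at 8.35 and 50.4 CPM, and its level in general capillary cells was 2.82 and 25.7 CPM. In thinned cells of Cebpa ΔSftpc mice Tnfrsf10b was found in 14.6% of vein-gated and 1.66% of immune cells, and Lama1 in 13.6% and 0.184%. The choice of the 17 genes asked for a spread over cells and a level above that of immune cells, so these shares are a description.

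The windows before the RefSeq starts of Ankrd37 and Ntrk2, the pair furthest apart, are shown with ACGTG, the core bound by hypoxia-inducible factors, in capitals. Both are from RefSeq (GRCm38.p6) and end at the base before the RefSeq start: Ankrd37 is chr8:45999851-46000100 on the minus strand, inside the longer GENCODE span given above, and Ntrk2 is chr13:58806319-58806568 on the plus strand.
Ankrd37: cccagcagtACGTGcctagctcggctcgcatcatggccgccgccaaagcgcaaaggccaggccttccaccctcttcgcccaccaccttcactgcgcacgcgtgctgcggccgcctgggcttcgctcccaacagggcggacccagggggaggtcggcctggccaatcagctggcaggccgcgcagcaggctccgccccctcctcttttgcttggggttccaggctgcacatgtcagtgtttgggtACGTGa
Ntrk2: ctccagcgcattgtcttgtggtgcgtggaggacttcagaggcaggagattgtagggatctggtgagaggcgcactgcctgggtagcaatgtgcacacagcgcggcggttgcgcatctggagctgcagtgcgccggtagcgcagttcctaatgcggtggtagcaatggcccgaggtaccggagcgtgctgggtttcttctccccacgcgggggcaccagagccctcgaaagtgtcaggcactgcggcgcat
Searched on both strands, ACGTG was found 2 times in the Ankrd37 window, starting 241 and 6 bases before the start, and not in that of Ntrk2. Of 32851 windows of this length, 16.6% hold it. Other genes that respond to hypoxia were not tested as a group.

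The other genes of the 17 were less far apart. Scn3b, a sodium channel subunit, had 454 UMIs in 245 cells and 632 UMIs in 244 cells (58.8 and 140 CPM, log2 ratio 1.25). Dusp6, a phosphatase that turns off ERK, had 615 UMIs in 361 cells and 800 UMIs in 303 cells (79.6 and 177 CPM, log2 ratio 1.15). Amd1, an enzyme of polyamine synthesis, stood at 22.4 and 67.5 CPM (1.59), Trp53i11, a p53-inducible gene, at 39.9 and 90.0 CPM (1.17), and Nos2, the inducible nitric oxide synthase, at 4.53 and 15.5 CPM (1.77). AY036118, which overlaps ribosomal RNA genes and is uncertain for that reason, stood at 1262 and 4225 CPM (1.74). Wdfy1, Fscn1, Fam167b, Ccdc122, Pprc1, Cttnbp2 and Gm16104 made up the rest, with log2 ratios between 1.14 and 1.56. Of the 17 genes, 16 were also at least 2-fold higher in general capillary cells, with a median log2 ratio of 1.58 there and of 1.26 in vein-gated cells, so they did not mark the vein. The exception was Cttnbp2, at 0.75. The 22 genes of the 39 that stood higher in immune than in vein-gated cells held leukocyte genes such as Coro1a, at 1.55 and 16.8 CPM in vein-gated cells and 1104 CPM in immune cells of Cebpa ΔSftpc mice.

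**Figure D5:**
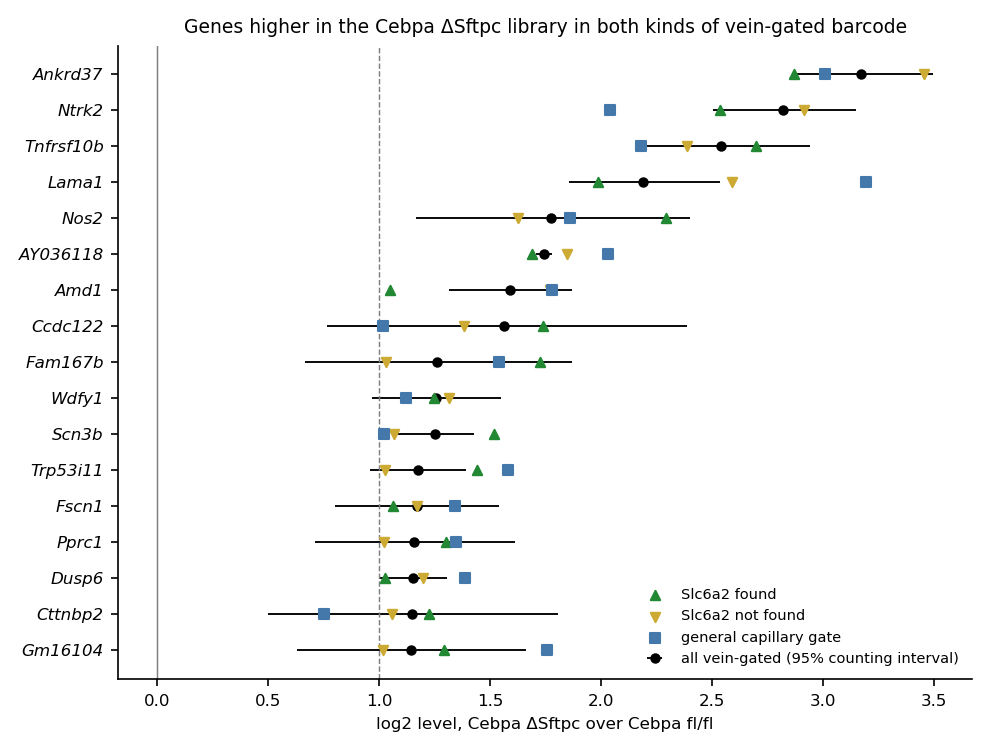
Log2 ratio of the level in Cebpa ΔSftpc over Cebpa fl/fl mice (x axis) for the 17 spread genes (y axis) in all vein-gated cells (black, with exact 95% counting intervals), in those with and without Slc6a2 and in general capillary cells; the dashed line marks 2-fold. Ankrd37 lies between 2.87 and 3.46 in the 4 sets, and Cttnbp2 is the gene whose general capillary value, 0.75, falls short of 2-fold.

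Among the 28 lower spread genes, the highest levels in Cebpa fl/fl vein-gated cells were those of the stromal genes Gsn and Dcn. Gsn, an actin-severing protein, stood at 1163 and 221 CPM in vein-gated cells, a log2 ratio of -2.39, and at 24928 and 19116 CPM in stromal cells. Dcn had a log2 ratio of -2.10 and stood at 9586 and 7921 CPM in stromal cells. Among genes with a lower level in stromal cells of Cebpa fl/fl mice, Ackr4, a scavenging receptor for homeostatic chemokines, stood at 19.7 and 6.42 CPM in vein-gated cells, a log2 ratio of -1.62, and Fgfbp3, a carrier of fibroblast growth factors, at 24.9 and 9.95 CPM (-1.32). In general capillary cells the ratios of these genes were -1.34 and -1.38, so neither was particular to the vein. Ctsh, a lysosomal protease that AT2 cells also carry, stood at 124 and 54.2 CPM (-1.20). Stromal barcodes, with at least 20 UMIs of Col1a1, Col1a2, Col3a1 and Dcn, numbered 662 and 207 in the libraries. Without the vein-gated cells holding at least 3 stromal UMIs, the log2 ratio of Gsn was -0.56 and that of Dcn -0.81, while those of Ackr4, Fgfbp3 and Ctsh were -1.86, -1.39 and -1.07.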

How the data were processed

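Single-cell RNA-Seq of mouse lung was analysed from 1 library of each genotype. The authors deposited filtered UMI count matrices made with Cell Ranger on mm10, which the file headers give as version 5.0.0 and the submitters' processing notes as 6.1.1, with no normalisation. The labels name cell sorting in the extraction, whereas the methods describe whole lung suspensions, so whether a sort shaped the cell shares is not known. Cells were gated on UMI counts as stated above, doublets were kept and no doublet caller was run, and UMIs were summed per library and scaled to CPM with scipy 1.17.1, pandas 2.3.3 and numpy 2.4.6 under Python 3.11.15 and drawn with matplotlib 3.10.9. Cell members and gene lists were chosen with earlier results of these data known.

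With 1 library per genotype no test was made. Log2 ratios had exact conditional intervals, a floor of 3 counts and a minimum of 50 UMIs over both libraries, and a gene was taken as apart at 2-fold. Ratios of single genes in subsets of the cells were given without this minimum. PCR copies were merged by UMI, and intervals and floors cover counting error only. General capillary, artery and lymphatic cells were gated on the same endothelial minimum and their own markers, and immune cells on at least 2 UMIs of Ptprc. The share of cells holding a gene was taken again after thinning to 3000 UMIs per cell. Genes named in the text were the gate genes and vessel lists, the 15 most above the other vessels, the 10 highest and 10 lowest ratios, up to 4 examples of each list and the most abundant gene of each other cell type. The 17 spread genes and the lower genes with them were chosen after their values were seen. The calculation was tested on simulated counts. Gene positions came from GENCODE M21, and windows of 250 bases before the start from RefSeq (GRCm38.p6), where 307 of 426 named genes had an entry. A few genes are not reported here.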

Additional observations from a re-analysis of the deposited data

Results flagged for a closer look

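The genes here stood at least 2-fold lower in vein-gated cells of Cebpa ΔSftpc mice and at least 2-fold higher in their general capillary cells. Those of cell division were not typical of their kind, since 5 of 6 measured genes of the proliferation list stood higher in the vein-gated cells, with a median log2 ratio of 0.29. The log2 ratio of Top2a, the topoisomerase of dividing cells, was -3.05 in vein-gated and 3.70 in general capillary cells. In the vein-gated cells of Cebpa fl/fl mice its 170 UMIs lay in 12 cells. Nusap1, a spindle protein, had log2 ratios of -2.63 and 1.41, Prc1, which bundles spindle microtubules, of -1.94 and 2.11, and the histone gene Hist1h2ap of -3.18 and 1.76. Scgb3a2, a secretoglobin of airway cells, had log2 ratios of -2.10 and 1.05, and 216 of its 234 UMIs in the Cebpa fl/fl vein-gated cells lay in 1 cell. They were singled out because the libraries moved in opposite directions in these cell groups, and with 1 library per genotype the difference between the groups was not tested.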

How the results depend on the processing

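Against 102 genes at least 2-fold higher and 254 lower in Cebpa ΔSftpc mice, 128 genes, 3 of them list members, were lower without cells with stromal UMIs; 61 were higher and 139 lower without cells with 10 or more capillary UMIs; 160 were lower by the mean CPM per cell; and 207 were higher after free RNA was subtracted. A minimum of 20 UMIs gave 215 higher and 548 lower genes, with 14 list members lower, and one of 100 UMIs 57 and 148, with 3 list members higher. In alternatives chosen after seeing the data, cells with Slc6a2 gave 59 higher genes (3 list members) and cells without it 164 lower genes. The higher genes were 28.7% of those apart, but 43.6% without stromal cells, 44.1% by the mean per cell and 52.3% with free RNA subtracted. Instead of 15 genes above the other vessels, adding 1 CPM gave 39 and 50 CPM gave 3.

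Signs turned with free RNA subtracted (Sftpa1 2.63, Sftpb 0.67, Cxcl15 1.07; the subtraction was scaled on surfactant genes, so these turns may follow from its construction), without cells with 10 capillary UMIs (Scgb1a1 0.70, Scgb3a2 1.91) and without stromal cells (Col1a1 0.16, Col1a2 0.41). In the added alternatives they turned in cells with Slc6a2 (Cxcl10 -0.50, Ildr2 -0.71), in cells without it (Scgb1a1 0.46, Scgb3a2 1.06), without cells with 2% of UMIs from another cell type (Lyz2 0.69, Scgb1a1 0.60, Scgb3a2 1.51) and without the cell holding most of the gene (Scgb1a1 0.55, Scgb3a2 1.51). The causes of the other turns were not tested. Of the ratios of named genes under these settings, 6276 kept their side of 2-fold, 66 fell short of it, 87 passed it and 16 that were 2-fold apart turned sign. Ratios under 2-fold turned sign in 349 cases. A ratio was not given in 17 cases with 3 or fewer counts in both libraries. The minimum of 50 UMIs was not asked of these ratios, and Cxcl10 and Ildr2 in the cells with Slc6a2 held fewer. No paired analysis was possible because each genotype had 1 library. Depth leaves genes under 50 UMIs unread.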
